A study of Homo sapiens with 12 samples.

Results

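The mRNA levels of serum response factor (SRF) and of 9 genes of the actin cytoskeleton, most of them known SRF targets, were followed through treatment with dolastatin 15. The 10 genes are TAGLN, ACTB, ACTG1, VCL, MYL9, TPM1, TPM4, CNN2, FLNA and SRF. They were taken by GENCODE 29 symbol from the 58174 genes of the deposited table. Each symbol matched 1 gene, and all 10 were among the 13458 genes tested, which had at least 1 FPKM in at least 2 of 12 libraries. FPKM is a fragment count divided by transcript length and by the size of the library.

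The cells were HCT116, an established line from a human colorectal carcinoma. Dolastatin 15 is a peptide isolated from a sea hare that inhibits the assembly of microtubules. The 6 groups, each of 2 libraries, were solvent (DMSO), 20 nM and 100 nM dolastatin 15 for 16 h, and solvent, 20 nM and 100 nM dolastatin 15 for 24 h. All groups shared 0.25% DMSO and medium with 5% serum, per the labels' protocols. Libraries carry the numbers of the table's columns. At 16 h, libraries 5 and 6 are solvent, 1 and 2 are 20 nM, and 3 and 4 are 100 nM. At 24 h, libraries 11 and 12 are solvent, 7 and 8 are 20 nM, and 9 and 10 are 100 nM. The labels call the treatments duplicates and do not say whether each had its own culture. The p-values therefore cover the spread between these libraries alone, and that spread may be technical.

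SRF binds a short DNA element, the CArG box, in front of many genes of the actin cytoskeleton. It works with 2 kinds of partner. The myocardin-related factors MRTFA and MRTFB bind monomeric actin and become free to act with SRF when actin polymerises, and the ternary complex factors ELK1, ELK3 and ELK4 act with SRF downstream of growth factor signalling. These relations are background and were not measured here.

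Depth cannot be read from FPKM, so precision rests on the spread between the 2 libraries of a group. The FPKM of a library summed to between 911720 and 1049886, and 20368 to 21519 genes were above 0. The 10 genes together held 1.70% to 2.15% of the sum, most of it actin. Mitochondrial genes held 17.9% to 25.8% of the sum, and the 20 nM, 24 h libraries, with 23.8% and 25.8%, stood above the 24 h solvent libraries, with 17.9% and 18.6%. Of 8 colorectal epithelial markers, 6 reached 1 FPKM in every group. Their summed level was 1252 to 1280 FPKM in solvent, 1370 to 1434 FPKM at 20 nM and 1375 to 1426 FPKM at 100 nM at 24 h, while KRT20 stayed at or under 0.82 and VIL1 at or under 0.22 FPKM. Since several of the 10 genes are also smooth muscle genes, smooth muscle and fibroblast markers were read as well. Of 9, 2 or 3 reached 1 FPKM in a group, with summed levels of 4.57 to 8.57 FPKM. COL1A1 had 1.44 to 4.34 FPKM, DES 0.72 to 2.05 FPKM and CNN1 0.39 to 1.57 FPKM over the 12 libraries. ACTA2, the smooth muscle actin, had 0.10 to 0.67 FPKM, and MYH11 had at most 0.38 FPKM. PDGFRB had at most 0.48 and COL1A2 at most 0.06 FPKM, and LUM and DCN were listed at 0 in 11 of 12 libraries. The summed smooth muscle and fibroblast level was 4.57 and 5.29 FPKM at 100 nM and 6.32 and 6.84 FPKM in solvent at 16 h, and 5.84 and 5.98 FPKM at 100 nM and 6.52 and 8.57 FPKM in solvent at 24 h. Of 4 leukocyte markers only CD68, a lysosomal protein that is not limited to leukocytes, reached 1 FPKM, while PTPRC had at most 0.02 FPKM. The summed leukocyte level at 24 h was 10.1 to 12 FPKM in solvent, 14.9 to 19.3 FPKM at 20 nM and 15.0 to 18.1 FPKM at 100 nM, and its part in the results was not tested. In bulk RNA, fewer cells of a kind and less RNA per cell cannot be told apart.

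Over the 10 genes and 4 comparisons with solvent, 22 of 40 values passed the test, 17 higher and 5 lower in treated cells. The test was limma on log2(FPKM + 1), with p-values adjusted over all 13458 genes after Benjamini and Hochberg and called under 0.05, and all changes below are log2 changes on that scale. At 20 nM and 16 h, 4 of the 10 rose and none fell, where 6.78% of all tested genes rose and 11% fell. At 100 nM and 16 h, 6 rose and none fell, where 9.16% of all tested genes rose and 14.7% fell. At 20 nM and 24 h, 2 rose and 3 fell, where 14.7% rose and 14.1% fell. At 100 nM and 24 h, 5 rose and 2 fell, where 15.4% rose and 18.4% fell. The median change of the 10 was 0.11, 0.16, -0.03 and 0.13 in that order, beside -0.02, -0.03, 0.002 and -0.02 for all tested genes. TAGLN and TPM4 passed as higher in all 4 comparisons, MYL9 and SRF in 3, and ACTB in 2, whereas VCL and CNN2 passed as lower in both comparisons at 24 h. ACTG1 and TPM1 passed in none, and FLNA passed once in each direction. Of the 22 calls, 16 held in all 22 alternatives.

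The direction of calls over all genes depended on how libraries were scaled. With each library scaled to a common sum, the median of all tested genes moved to -0.16 at 20 nM and -0.11 at 100 nM at 24 h, and the share of called genes that were higher was 10.9% in place of 51.1% and 23.4% in place of 45.6%. With a common sum over nuclear genes the shares were 33.1% and 30.1%. At 16 h a median-of-ratios scaling gave 50.5% at 20 nM and 49.8% at 100 nM in place of 38.2% and 38.5%, and a common sum gave 27.7% at 100 nM.

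**Figure D1:**
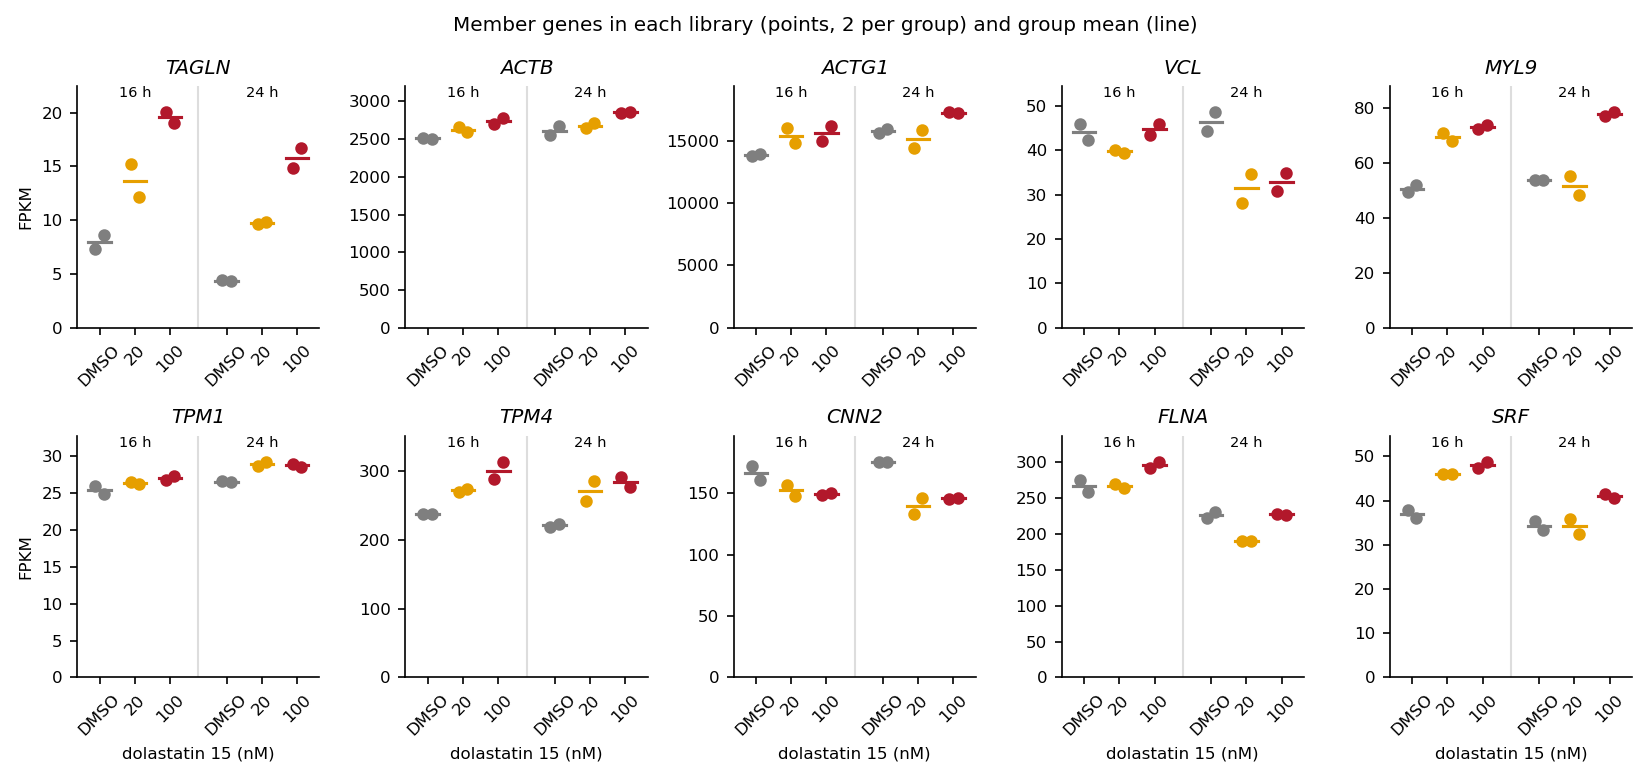
FPKM (y axis, from 0, 1 scale per gene) of the 10 genes in solvent, 20 nM and 100 nM dolastatin 15 (x axis) at 16 h and 24 h, with points for the 2 libraries of a group and a line for their mean. TAGLN climbs with dose at both times and is highest in a 100 nM, 16 h library (20.08 FPKM) and lowest in a 24 h solvent library (4.30 FPKM), while the group means of ACTB and TPM1 span 0.19 and 0.18 on the log2 scale.

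SRF itself (ENSG00000112658, chromosome 6, 43171299 to 43181507, plus strand, GRCh38, 1 annotated transcript) encodes the transcription factor. Its level at 16 h was 37.94 and 36.13 FPKM in solvent, 45.96 and 46.09 FPKM at 20 nM, and 47.24 and 48.77 FPKM at 100 nM. The 24 h levels were 35.29 and 33.38 FPKM in solvent, 35.76 and 32.50 FPKM at 20 nM, and 41.45 and 40.66 FPKM at 100 nM. All treated libraries stood above solvent except those of 20 nM at 24 h, which overlapped it. SRF rose by 0.31 at 20 nM and 16 h (SE 0.05, adjusted p = 0.00579), by 0.37 at 100 nM and 16 h (SE 0.05, adjusted p = 0.00166) and by 0.25 at 100 nM and 24 h (SE 0.05, adjusted p = 0.00723). At 20 nM and 24 h its difference was -0.01 with a 95% interval of -0.13 to 0.11 (adjusted p = 0.918). Without library 12 the last of these calls ended (adjusted p = 0.0547), as it did when libraries were scaled to a common sum (0.16, adjusted p = 0.0531). Under that scaling the 20 nM, 24 h value was -0.19 and passed the test (adjusted p = 0.0237).

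Among 9 listed SRF partners, 7 were expressed enough to be tested, and the largest change was that of FHL2, a LIM domain protein known to bind SRF and to be one of its targets. FHL2 had 38.05 and 38.10 FPKM in solvent, 46.28 and 45.36 FPKM at 20 nM and 54.97 and 58.76 FPKM at 100 nM at 16 h. Treated libraries lay above solvent without overlap, and FHL2 rose by 0.26 at 20 nM (adjusted p = 0.00962, over 0.05 without library 1 or without library 5, at up to 0.0661) and by 0.57 at 100 nM (adjusted p = 1.17e-04). At 24 h it had 36.21 and 36.07 FPKM in solvent, 37.98 and 36.40 FPKM at 20 nM and 43.91 and 40.40 FPKM at 100 nM. The differences there were 0.04 at 20 nM (adjusted p = 0.596) and 0.22 at 100 nM (adjusted p = 0.0118), the second ended by a common sum and without library 9, 11 or 12 (0.0518 to 0.0970). Between the times the effect of 100 nM on FHL2 changed by -0.35 (adjusted p = 0.0194, ended without any 1 of 6 libraries, at up to 0.0646). MRTFA had 11.50 to 14.99 FPKM and MRTFB 9.48 to 13.08 FPKM over the 12 libraries, and neither passed the test in any comparison with solvent, the nearest being MRTFB at 100 nM and 24 h (-0.24, 95% interval -0.44 to -0.05, adjusted p = 0.0550). MYOCD, the myocardin of heart and smooth muscle, was listed at 0 in every library. ELK1 had 24.87 and 25.87 FPKM at 100 nM and 30.55 and 28.71 FPKM in solvent at 16 h, and 34.90 and 35.30 FPKM at 100 nM and 30.87 and 29.58 FPKM in solvent at 24 h. Its sign differed between the times (-0.22, adjusted p = 0.0151, and 0.21, adjusted p = 0.0122), and so did the effect itself (0.43, adjusted p = 0.00844). Leaving out libraries ended the first ELK1 call for library 3 or 5 (adjusted p up to 0.0988) and the second for library 9, 10 or 12, as did a common sum (adjusted p from 0.0521). ELK3 rose at 100 nM and 16 h alone (0.27, adjusted p = 0.0219, over 0.05 without library 3, 4 or 6, at up to 0.123).

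Promoter windows from 250 bases before to 50 bases after the annotated start were taken from RefSeq (GRCh38.p14) to see which of the 10 genes hold the element SRF binds. The table had windows for 7 of the 10, all but TAGLN, ACTB and MYL9. A complete CArG box was present in 5 of these 7, ACTG1, TPM4, CNN2, FLNA and SRF, and SRF held 2. The share was 1.60% over all 27305 genes with a window and 1.29% over all 35116 windows of this length, searched for the CArG box on both strands, which its palindromic form covers at once. A box with 1 letter off was present in 21.3% of all genes. No complete box was found in the windows of VCL and TPM1. Since the genes were listed as SRF targets, the share among them is not independent of that choice. The stretches are shown 5′ to 3′ on the gene's strand with the box in capitals.

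SRF (chr6:43171219-43171288, plus strand): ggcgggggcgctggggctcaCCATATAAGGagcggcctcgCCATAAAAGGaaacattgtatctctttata
ACTG1 (chr17:81512864-81512913, minus strand): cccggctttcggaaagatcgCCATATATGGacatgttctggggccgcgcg
TPM4 (chr19:16067345-16067394, plus strand): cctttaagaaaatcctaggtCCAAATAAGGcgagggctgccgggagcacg
CNN2 (chr19:1026499-1026548, plus strand): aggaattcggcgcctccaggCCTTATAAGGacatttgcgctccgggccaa
FLNA (chrX:154374699-154374748, minus strand): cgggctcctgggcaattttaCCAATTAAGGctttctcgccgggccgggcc

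The first base of the box lay 30 and 10 bases before the start in SRF, 94 in ACTG1, 173 in TPM4, 89 in CNN2 and 94 in FLNA. Genes with a complete box differed in their calls. TPM4 and SRF passed as higher in 4 and 3 of the 4 comparisons with solvent, CNN2 as lower in 2, FLNA once each way and ACTG1 in none. VCL and TPM1, with no complete box in the window, passed as lower in 2 and in none.

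TAGLN (ENSG00000149591, chromosome 11, 117199321 to 117204782, plus strand) encodes transgelin, an actin-binding protein of smooth muscle that is also made in fibroblasts and some epithelial cells, and it changed most of the 10. At 16 h it had 7.32 and 8.62 FPKM in solvent, 15.23 and 12.14 FPKM at 20 nM, and 20.08 and 19.08 FPKM at 100 nM. By 24 h TAGLN had 4.43 and 4.30 FPKM in solvent, 9.60 and 9.83 FPKM at 20 nM, and 14.81 and 16.72 FPKM at 100 nM. Within each time the 3 groups did not overlap and stood in the order of dose. TAGLN rose by 0.71 at 20 nM and 16 h (SE 0.11, adjusted p = 0.00280), by 1.20 at 100 nM and 16 h (SE 0.11, adjusted p = 1.07e-04), by 1.00 at 20 nM and 24 h (SE 0.11, adjusted p = 3.67e-04) and by 1.64 at 100 nM and 24 h (SE 0.11, adjusted p = 1.81e-05). All 4 calls held in each of 22 alternatives. At such low levels the pseudocount of 1 makes these values understate the ratio of the FPKM. Over all 6 groups, only 20 nM at 16 h and 100 nM at 24 h overlapped as neighbours in the order of levels. The interval of TAGLN overlaps that of PCSK7 on the other strand. PCSK7, a proprotein convertase, had 13.44 to 18.00 FPKM and passed in none of the 4 comparisons with solvent.

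TAGLN2, which encodes the paralog transgelin 2 of many tissues, was far more abundant. The gene was named after its values were seen. It had 166.25 and 162.14 FPKM in solvent, 170.29 and 167.58 FPKM at 20 nM and 180.39 and 173.57 FPKM at 100 nM at 16 h. Its changes with dolastatin 15 were between 0.04 and 0.13, and the largest, at 100 nM and 24 h, was called (adjusted p = 0.0447) but ended without library 1, 2, 3, 4, 5, 6, 9, 11 or 12 (adjusted p up to 0.617 over the settings that ended it). Among the transgelins, the level of TAGLN per TAGLN2 was 0.110 and 0.111 at 100 nM and 0.0440 and 0.0532 in solvent at 16 h. The 24 h ratios were 0.0853 and 0.102 at 100 nM and 0.0275 and 0.0292 in solvent. FPKM is scaled to length, so these are ratios of levels per length, and TAGLN stayed the minor of the 2 in every library.

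MYL9 (ENSG00000101335, chromosome 20, 36541484 to 36551447, plus strand) encodes a regulatory light chain of myosin II, the chain whose phosphorylation sets contraction. Its level at 16 h was 49.15 and 51.85 FPKM in solvent, 70.87 and 67.79 FPKM at 20 nM, and 72.16 and 73.60 FPKM at 100 nM. The level at 24 h was 53.62 and 53.51 FPKM in solvent, 55.26 and 48.05 FPKM at 20 nM, and 76.83 and 78.42 FPKM at 100 nM. The 20 nM libraries lay well above solvent at 16 h and on both sides of it at 24 h, while the 100 nM libraries were the highest at each time. MYL9 rose by 0.45 at 20 nM and 16 h (SE 0.06, adjusted p = 0.00166), by 0.52 at 100 nM and 16 h (SE 0.06, adjusted p = 5.37e-04) and by 0.53 at 100 nM and 24 h (SE 0.06, adjusted p = 3.92e-04), in every alternative. At 20 nM and 24 h the difference was -0.05, with a 95% interval of -0.19 to 0.09 (adjusted p = 0.543). Scaling to a common sum made that value -0.24, which passed (adjusted p = 0.0164).

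The other regulatory light chains, MYL12A and MYL12B, are near-identical neighbours between which reads may be divided uncertainly. They went opposite ways. MYL12A had 164.62 and 163.06 FPKM in solvent, 192.37 and 193.22 FPKM at 20 nM and 207.53 and 204.23 FPKM at 100 nM at 16 h, and rose by 0.23 and 0.33. It also rose at 24 h, by 0.17 and 0.19, but a common sum ended both calls and turned the 20 nM value negative, and the 20 nM call also ended without library 11 (adjusted p 0.0512 to 0.739 over the settings that ended it). MYL12B had 193.51 and 188.79 FPKM in solvent, 161.81 and 152.79 FPKM at 20 nM and 159.92 and 153.75 FPKM at 100 nM at 16 h, and fell by 0.28 at both doses (adjusted p of the 4 values at 16 h, 3.90e-04 to 0.00339). At 100 nM and 24 h, MYL12B fell by 0.41 (adjusted p = 1.84e-04). The level of MYL9 per MYL12B was 0.548 and 0.568 at 100 nM and 0.282 and 0.296 in solvent at 24 h. The 20 nM, 24 h ratios were 0.297 and 0.347, so that the doses did not overlap.

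**Figure D2:**
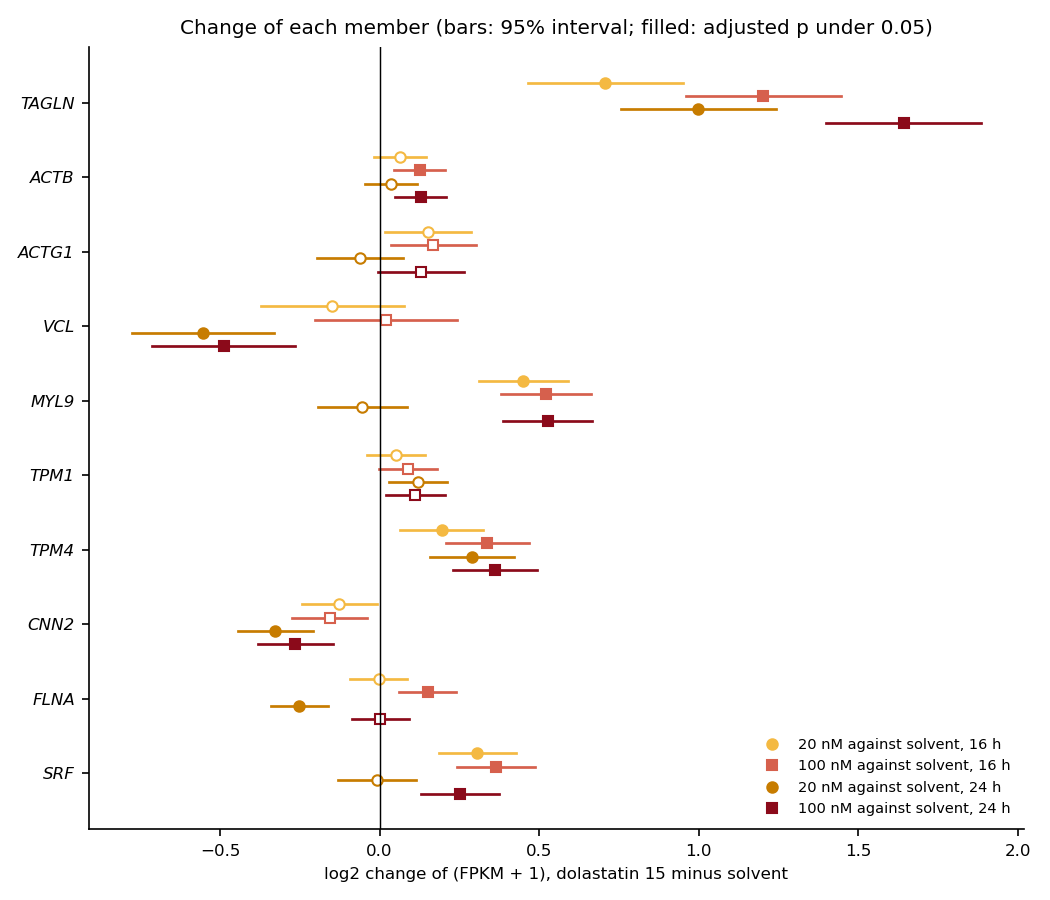
Log2 change of (FPKM + 1), dolastatin 15 minus solvent (x axis), of the 10 genes (rows) in 4 comparisons, with bars for the 95% interval and filled symbols for an adjusted p under 0.05. TAGLN reaches 1.64, MYL9 and SRF are above 0 in every comparison but 20 nM at 24 h, and VCL and CNN2 lie below 0 at 24 h.

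The tropomyosins lie along actin filaments and govern which proteins can bind them. TPM4 (ENSG00000167460, chromosome 19, 16067021 to 16103005, plus strand) had 237.41 and 237.01 FPKM in solvent, 269.79 and 273.29 FPKM at 20 nM and 287.54 and 313.12 FPKM at 100 nM at 16 h. The 24 h libraries of TPM4 had 218.30 and 223.06 FPKM in solvent, 255.50 and 285.10 FPKM at 20 nM and 291.05 and 276.95 FPKM at 100 nM. Every treated library stood above both solvent libraries of its time, and the doses overlapped at 24 h. TPM4 rose by 0.34 at 100 nM and 16 h (SE 0.06, adjusted p = 0.00355), by 0.29 at 20 nM and 24 h (SE 0.06, adjusted p = 0.00646) and by 0.36 at 100 nM and 24 h (SE 0.06, adjusted p = 0.00180). The 20 nM value at 16 h passed narrowly (0.19, SE 0.06, adjusted p = 0.0483), and the call ended without library 1, 2, 5, 6, 9, 10, 11 or 12. It also ended with a common sum over nuclear genes, with no filter on low values and with a constant prior (adjusted p = 0.0607, 0.110 and 0.0817). With a common sum for all libraries, TPM4 no longer passed at 20 nM and 24 h (0.10, adjusted p = 0.171).

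TPM1 (ENSG00000140416, chromosome 15, 63042632 to 63071915, plus strand), with 34 annotated transcripts, was expressed far below TPM4 per length and changed little. It had 25.96 and 24.87 FPKM in solvent, 26.52 and 26.23 FPKM at 20 nM and 26.82 and 27.33 FPKM at 100 nM at 16 h. TPM1 at 24 h had 26.64 and 26.53 FPKM in solvent, 28.68 and 29.28 FPKM at 20 nM and 29.01 and 28.63 FPKM at 100 nM. Solvent libraries were the lowest at each time, yet no difference passed, at 0.05 to 0.12 (adjusted p 0.0533 to 0.417). Median-of-ratios scaling brought 3 of these 4 values past the test, at 0.12 to 0.14 (adjusted p 0.0176 to 0.0426), while scaling to a common sum turned the 20 nM, 24 h value to -0.06. The level of TPM4 per TPM1 was 10.7 and 11.5 at 100 nM and 9.15 and 9.53 in solvent at 16 h. Of the other tropomyosins, TPM2 rose at 100 nM by 0.21 at 16 h (adjusted p = 0.0175, ended without library 4, 5 or 6, at up to 0.0902) and by 0.33 at 24 h (adjusted p = 0.00158). TPM3 was named after its values were seen. At 24 h TPM3 had 618.84 and 613.34 FPKM in solvent, 692.81 and 724.03 FPKM at 20 nM and 678.86 and 684.16 FPKM at 100 nM. The 16 h levels of TPM3 were 567.86 and 545.45 FPKM in solvent, 573.62 and 574.86 FPKM at 20 nM and 528.75 and 577.67 FPKM at 100 nM. The gene table gives no isoforms, so the long tropomyosins of stress fibres and the short ones cannot be separated here.

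CNN2 (ENSG00000064666, chromosome 19, 1026581 to 1039068, plus strand) encodes calponin 2, an actin-binding protein of many non-muscle cells. It had 172.15 and 160.85 FPKM in solvent, 156.68 and 148.13 FPKM at 20 nM and 148.33 and 150.09 FPKM at 100 nM at 16 h. CNN2 at 24 h had 175.17 and 175.79 FPKM in solvent, 133.38 and 146.19 FPKM at 20 nM and 145.42 and 146.51 FPKM at 100 nM. All 8 treated libraries were below all 4 solvent libraries. CNN2 fell by 0.33 at 20 nM and 24 h (SE 0.05, adjusted p = 0.00229) and by 0.26 at 100 nM and 24 h (SE 0.05, adjusted p = 0.00483). At 16 h the values were -0.13 (adjusted p = 0.129) and -0.16 (adjusted p = 0.0581), and the second passed without library 7 or 8 and under a common sum or with protein-coding genes alone (adjusted p 0.0247 to 0.0495). CNN3, another calponin, was lower at 24 h by a like amount (-0.26, adjusted p = 0.00282, and -0.29, adjusted p = 0.00110), but the 2 genes differed at 16 h. CNN3 then had 61.72 and 58.98 FPKM in solvent, 57.18 and 59.02 FPKM at 20 nM and 67.51 and 63.78 FPKM at 100 nM. Between the times the effect of 100 nM on CNN3 changed by -0.41 (adjusted p = 0.00460). The level of CNN2 per CNN3 at 16 h was 2.20 and 2.35 at 100 nM and 2.73 and 2.79 in solvent. An uncharacterised transcript on the other strand, AC011558.1, varied between 0 and 42.25 FPKM from library to library and passed in no comparison.

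ACTB (ENSG00000075624, chromosome 7, 5527147 to 5563784, minus strand) and ACTG1 (ENSG00000184009, chromosome 17, 81509971 to 81523847, minus strand) encode the cytoplasmic beta and gamma actins, the building blocks of the filaments and, as monomers, the ligands of MRTFA and MRTFB. ACTB had 2513 and 2507 FPKM in solvent, 2658 and 2589 FPKM at 20 nM and 2696 and 2780 FPKM at 100 nM at 16 h. At 24 h it had 2554 and 2671 FPKM in solvent, 2642 and 2714 FPKM at 20 nM and 2849 and 2862 FPKM at 100 nM. The 100 nM libraries were the highest at both times. ACTB rose by 0.13 at 100 nM at 16 h (SE 0.04, adjusted p = 0.0329) and at 24 h (SE 0.04, adjusted p = 0.0225). Both calls were fragile. The first ended without library 1, 2, 3, 4, 5, 6, 9 or 10 and the second without library 9, 10 or 11. A common sum ended both (0.09 and 0.03, adjusted p = 0.0733 and 0.467). So did no filter on low values (adjusted p = 0.146 and 0.109) and a constant prior (adjusted p = 0.0809 and 0.0585). A common sum over nuclear genes ended the second as well (0.06, adjusted p = 0.246), as did fitting the 24 h libraries alone (adjusted p = 0.0858). Under a common sum ACTB was lower at 20 nM and 24 h (-0.15, adjusted p = 0.00581), where the deposited values gave 0.04 (adjusted p = 0.484).

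ACTG1 had 13829 and 13936 FPKM in solvent, 16045 and 14832 FPKM at 20 nM and 14983 and 16249 FPKM at 100 nM at 16 h. At 24 h it had 15623 and 15970 FPKM in solvent, 14450 and 15871 FPKM at 20 nM and 17351 and 17222 FPKM at 100 nM. The SD was 858 to 1005 FPKM in both 16 h drug groups and at 20 nM and 24 h, and no comparison with solvent passed (0.15, 0.17, -0.06 and 0.13, adjusted p 0.0712 to 0.480). At 100 nM and 16 h it passed without library 7 or 8 and with median-of-ratios scaling (adjusted p 0.0339 to 0.0366), and under a common sum it was lower at 20 nM and 24 h (-0.25, adjusted p = 0.00760). The level of ACTG1 per ACTB was 5.47 to 6.12 over the 12 libraries. Annotated transcripts of ACTG1 run from 471 to 2256 bases, and FPKM depends on which of them reads were assigned to. The 2 actin mRNAs and 10 and 20 annotated pseudogenes named for them are near-identical in their coding parts, so their split is uncertain. ACTBP7 had the highest level of these pseudogenes, with at most 2.59 FPKM.

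**Figure D3:**
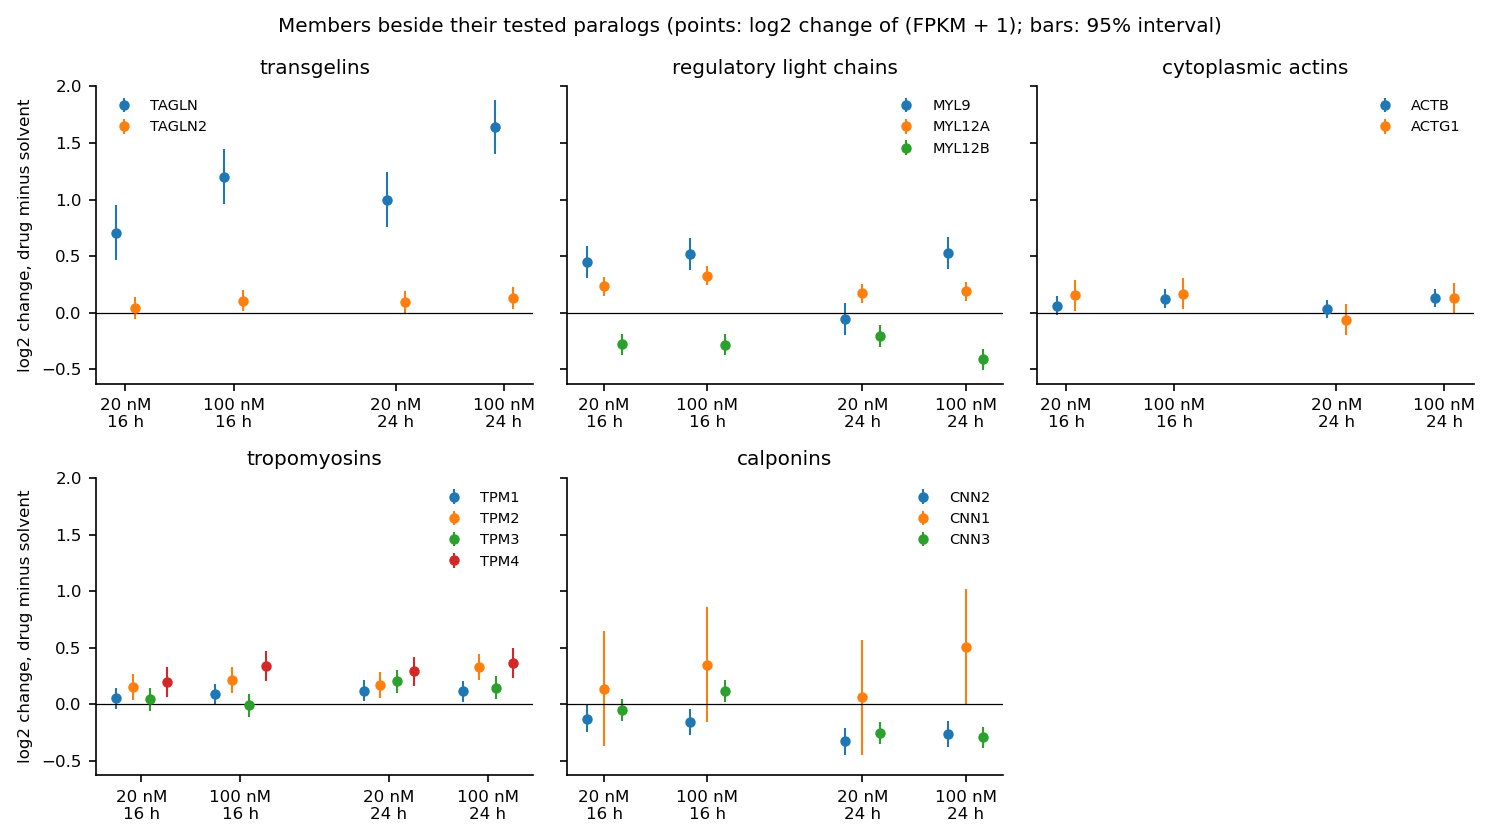
Log2 change of (FPKM + 1), dolastatin 15 minus solvent (y axis), for 5 gene families in 4 comparisons (x axis), with bars for the 95% interval. TAGLN lies above TAGLN2 in all 4 comparisons, MYL12B lies below 0 where MYL12A lies above it (at 20 nM and 24 h MYL12A is negative under a common sum), and the 2 actins stay within 0.17 of 0.

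VCL (ENSG00000035403, chromosome 10, 73995193 to 74121363, plus strand) encodes vinculin, which ties actin to integrin and cadherin adhesions. At 16 h it had 45.86 and 42.42 FPKM in solvent, 40.05 and 39.39 FPKM at 20 nM and 43.41 and 46.01 FPKM at 100 nM. At 24 h it had 44.28 and 48.65 FPKM in solvent, 28.21 and 34.72 FPKM at 20 nM and 30.76 and 34.93 FPKM at 100 nM. The 4 treated libraries of 24 h were the lowest of the 12. VCL fell by 0.55 at 20 nM (SE 0.10, adjusted p = 0.00385) and by 0.49 at 100 nM (SE 0.10, adjusted p = 0.00533) at 24 h, in every alternative. At 16 h the values were -0.15 (95% interval -0.37 to 0.07, adjusted p = 0.339) and 0.02 (-0.20 to 0.24, adjusted p = 0.917). Its interval overlaps AP3M1, a subunit of an adaptor complex, on the other strand. AP3M1 had 22.48 to 33.21 FPKM and was itself lower in all 4 comparisons (-0.30, -0.35, -0.23 and -0.49), and since the strand setting of the counting is not given in the sources used here, its part in the values of VCL was not tested.

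FLNA (ENSG00000196924, chromosome X, 154348524 to 154374638, minus strand) encodes filamin A, which crosslinks actin filaments into networks. Its level at 16 h was 275.77 and 259.09 FPKM in solvent, 269.42 and 264.03 FPKM at 20 nM, and 292.48 and 301.03 FPKM at 100 nM. At 24 h it was 222.76 and 231.30 FPKM in solvent, 190.26 and 190.87 FPKM at 20 nM, and 228.08 and 226.74 FPKM at 100 nM. The 20 nM libraries of 24 h were the lowest of the 12 and the 100 nM libraries of 16 h the highest. FLNA fell by 0.25 at 20 nM and 24 h (SE 0.04, adjusted p = 0.00210) and rose by 0.15 at 100 nM and 16 h (SE 0.04, adjusted p = 0.0236). The second call ended without library 3, 4 or 6, and also with a constant prior (adjusted p = 0.0564). At 100 nM and 24 h its difference was 0.003, with a 95% interval of -0.09 to 0.09.

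Between the doses, 4 of the 10 genes differed at 24 h and all 4 were higher at 100 nM, where 1.82% of all tested genes were higher and 3.06% lower. They were MYL9 (0.58, adjusted p = 0.00310), TAGLN (0.64, adjusted p = 0.0177), FLNA (0.25, adjusted p = 0.0130) and SRF (0.26, adjusted p = 0.0320). In each of the 4, both 100 nM libraries exceeded both 20 nM libraries. This adds no support, since the genes had passed a test on the same libraries. Calls of TAGLN and FLNA ended without library 8, 9 or 10 and that of SRF without library 1, 2, 8, 9 or 10. The SRF call also ended with no filter on low values and with a constant prior (adjusted p = 0.0575 and 0.0551). None of the 4 genes passed when the 24 h libraries were fitted alone (adjusted p 0.0520 to 0.132). At 16 h no gene of the 10 passed between the doses in limma, and 3 of 10 (TAGLN, TPM4 and FLNA) had an unadjusted p under 0.05, as did 12.1% of all tested genes. After adjustment few genes passed there in all, 0.0446% higher and 0.275% lower at 100 nM. TAGLN differed by 0.49 between the doses at 16 h (95% interval 0.25 to 0.74, adjusted p = 0.112). With libraries scaled to a common sum, ACTB and ACTG1 also passed between the doses at 24 h (0.18 and 0.28, adjusted p = 0.0152 and 0.0224). Of all tested genes, 5.83% were then higher and 1.21% lower, and their median change was 0.05 in place of -0.03.

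In solvent, 2 of the 10 genes were lower at 24 h than at 16 h, where 3.14% of all tested genes were higher and 2.47% lower. TAGLN was lower by 0.74 (SE 0.11, adjusted p = 0.0134) and FLNA by 0.23 (SE 0.04, adjusted p = 0.0171). These calls ended without library 5, 6, 11 or 12 for TAGLN and without 5, 11 or 12 for FLNA (adjusted p 0.0576 to 0.106). At 100 nM, TAGLN changed by 1.64 against solvent at 24 h and by 1.20 at 16 h, and its level was 15.8 ± 1.35 FPKM at 24 h and 19.6 ± 0.71 FPKM at 16 h (SD, n = 2 each). The difference of those changes was 0.44 and did not pass (95% interval 0.10 to 0.78, adjusted p = 0.102).

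The effect of 20 nM changed with time for 3 of the 10 genes, all toward lower values at 24 h, where 7.06% of all tested genes changed upward and 4.46% downward. MYL9 differed by -0.50 between the times (SE 0.09, adjusted p = 0.00879), SRF by -0.32 (SE 0.08, adjusted p = 0.0309) and FLNA by -0.25 (SE 0.06, adjusted p = 0.0232). MYL9 and SRF at 20 nM overlapped solvent at 24 h and lay above it at 16 h, and FLNA lay below solvent at 24 h and overlapped it at 16 h. The calls of SRF and FLNA ended without library 1, 2, 5, 6, 8, 9 or 11 for SRF and without 1, 2, 6 or 12 for FLNA. A constant prior ended both (adjusted p = 0.0501 and 0.0573), and no filter on low values ended that of SRF (adjusted p = 0.0578). Mitochondrial genes held 23.8% and 25.8% of the FPKM in the 20 nM, 24 h libraries, and their part was not tested. With libraries scaled to a common sum, 7 of the 10 genes passed, all lower, where 2.56% of all tested genes were then higher and 15.7% lower. For the effect of 100 nM, no gene of the 10 passed in limma, where 5.87% of all tested genes passed upward and 4.29% downward. TAGLN, VCL and FLNA, 3 of 10, had an unadjusted p under 0.05, and so did 26.7% of all tested genes. VCL came nearest, at -0.51 (95% interval -0.82 to -0.19, adjusted p = 0.0518), and passed under 4 of the other settings and without library 7 or 8 (adjusted p 0.0195 to 0.0405).

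The 10 genes ran in different courses over the 6 groups. The range of a gene's 6 group means of log2(FPKM + 1) was 1.94 for TAGLN, wider than for 99.4% of tested genes. It was 0.64 for FLNA, 0.61 for MYL9, 0.55 for VCL, 0.48 for SRF and 0.44 for TPM4, all above the median of 0.39 over all tested genes. CNN2 (0.33), ACTG1 (0.32), ACTB (0.19) and TPM1 (0.18) were below that median. Likeness was measured as the root mean square difference of 2 genes' 6 group means, each centred on its own mean. By this measure SRF was 135th of 13457 genes for MYL9 (0.14), ACTB was 62nd for ACTG1 (0.05), TPM1 was 106th for ACTB (0.04), and MYL9 was 171st for TAGLN (0.46). These were among the closest places of the 90 ordered pairs of the 10 genes. Places are not mutual, and MYL9 was 1317th for SRF and TAGLN 12361st for MYL9. The median place was 6351.5, and 23 of the 90 pairs stood past place 10000.

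For genes with a range of at least 0.5, the 3 nearest genes were read off the whole table, as a description over 6 group means that share their libraries. The nearest to TAGLN were TNC, which encodes the matrix protein tenascin C (0.115), SMIM11B, a near-identical copy of SMIM11A whose reads may be divided uncertainly (0.175), and the long noncoding AC007952.4 (0.212). The nearest to VCL were CPNE2 (0.0257), EGFR, the epidermal growth factor receptor (0.0286), and ECHDC3 (0.0325). Those nearest to MYL9 were PHLDA2 (0.0606), ZNF593 (0.0700) and AC005393.1 (0.0727), and those nearest to FLNA were TARBP2 (0.0280), SPNS2 (0.0335) and AC019069.1 (0.0417).

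**Figure D4:**
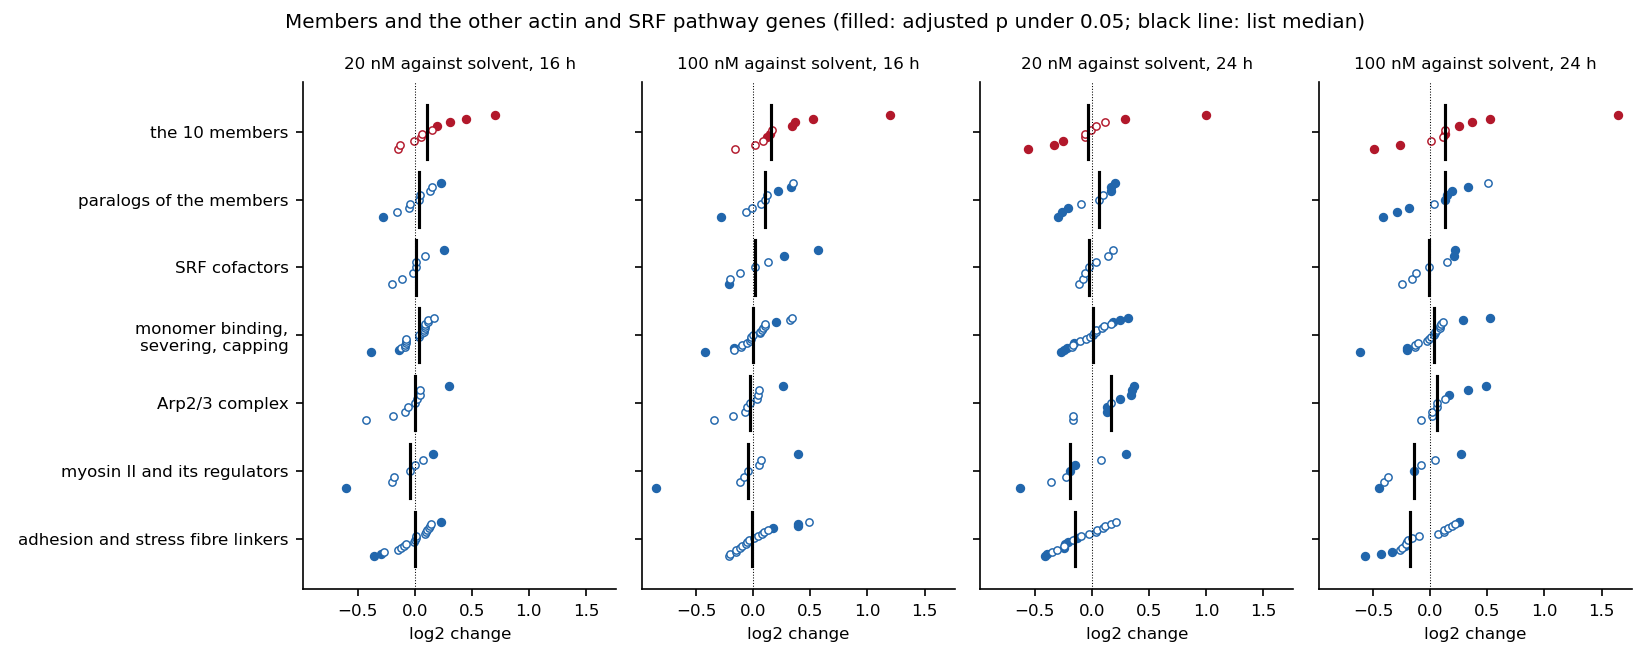
Log2 change of (FPKM + 1) against solvent (x axis) of the 10 genes and of 69 further tested genes in 6 lists (rows), in 4 comparisons (panels), with filled points for an adjusted p under 0.05 and a black line for the median of a list. The 10 genes reach furthest right through TAGLN. The medians at 24 h lie at -0.14 (20 nM) and -0.18 (100 nM) for the adhesion list and at -0.19 and -0.15 for the myosin II list.

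A wider set of 90 genes of the actin and SRF pathway, 82 of them tested, moved in both directions. At 16 h, 5 rose and 9 fell at 20 nM, and 10 rose and 8 fell at 100 nM. The 16 h shares at 20 nM, 6.10% higher and 11% lower, were near those of all tested genes (6.78% and 11%), and at 100 nM they were 12.2% and 9.76%, beside 9.16% and 14.7%. At 24 h, 13 rose and 21 fell at 20 nM, and 14 rose and 20 fell at 100 nM. These were 15.9% and 25.6% at 20 nM, beside 14.7% and 14.1% of all tested genes, and 17.1% and 24.4% at 100 nM, beside 15.4% and 18.4%. The median change of the set was -0.001, -0.02, -0.04 and -0.01 in these 4 comparisons, beside -0.02, -0.03, 0.002 and -0.02 for all tested genes. Scaling to a common sum moved the split at 24 h to 3 higher and 44 lower at 20 nM and to 7 higher and 29 lower at 100 nM, and that of all tested genes to 4.24% higher and 34.7% lower and to 8.51% higher and 27.8% lower.

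The genes of myosin II, the motor that MYL9 belongs to, split in their direction. MYH9, the heavy chain of non-muscle myosin IIA, had 221.43 and 236.20 FPKM at 100 nM and 177.79 and 170.92 FPKM in solvent at 16 h. It rose at 100 nM by 0.39 at 16 h (adjusted p = 3.79e-04) and by 0.27 at 24 h (adjusted p = 0.00191). At 24 h MYH9 had 168.24 and 164.03 FPKM at 100 nM and 134.04 and 141.31 FPKM in solvent, where it was lower than at 16 h (-0.34). At 20 nM it was higher at 16 h (0.16, adjusted p = 0.0384) and lower at 24 h (-0.15, adjusted p = 0.0314), but the first call ended without library 1, 2, 5, 6, 9 or 10 and the second without library 7, 8 or 12 (adjusted p up to 0.180 and 0.174 over the settings that ended them). MYH14, the heavy chain of myosin IIC, had 8.87 and 9.17 FPKM in solvent, 5.53 and 5.46 FPKM at 20 nM and 6.78 and 5.94 FPKM at 100 nM at 24 h, and fell by 0.63 and 0.45 (adjusted p = 4.96e-04 and 0.00187). PPP1CB, a catalytic subunit of myosin phosphatase, had 80.22 and 80.60 FPKM in solvent, 50.19 and 55.36 FPKM at 20 nM and 42.90 and 45.37 FPKM at 100 nM at 16 h, without overlap. It fell at 16 h by 0.60 at 20 nM and by 0.85 at 100 nM (adjusted p = 1.26e-04 and 1.03e-05). PPP1CB was higher at 20 nM and 24 h, by 0.30 (adjusted p = 0.00292), a call that a common sum ended (adjusted p = 0.0988).

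Among 18 genes of adhesions and stress fibre linkers, 6 fell and none rose at 20 nM and 24 h, and 5 fell and 1 rose at 100 nM and 24 h, where 14.1% and 18.4% of all tested genes fell. A common sum made these counts 12 lower and none higher, and 7 lower and 1 higher, where 34.7% and 27.8% of all tested genes were then lower. At 20 nM the calls of ENAH, PDLIM5, PDLIM7 and PXN each ended when 1 of several libraries was left out (adjusted p up to 0.202 over the settings that ended them). ACTN1, alpha-actinin 1, had 72.26 and 73.41 FPKM in solvent, 54.86 and 55.98 FPKM at 20 nM and 56.35 and 58.40 FPKM at 100 nM at 24 h, and fell by 0.39 and 0.34. PARVA, a partner of integrin-linked kinase at adhesions, fell by 0.41 and 0.43, beside the fall of VCL at that time. ZYX, zyxin of stress fibres and adhesions, had 56.69 and 55.32 FPKM in solvent, 66.94 and 64.47 FPKM at 20 nM and 73.52 and 73.97 FPKM at 100 nM at 16 h. It rose by 0.23 and 0.39 (adjusted p = 0.00387 and 1.41e-04) and again at 100 nM and 24 h, where its libraries had 65.61 and 66.77 FPKM against 55.07 and 55.50 FPKM in solvent. PDLIM7, a LIM protein of actin filaments, rose at 100 nM and 16 h (0.39, adjusted p = 0.00144) and was lower at 20 nM and 24 h (-0.24, adjusted p = 0.0132), the effect of 20 nM having changed by -0.38 between the times (adjusted p = 0.0188, ended without library 1, 2, 5 or 11, at up to 0.0643).

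The Arp2/3 complex, which nucleates branched filaments, had 6 of its 9 listed genes higher and none lower at 20 nM and 24 h (median 0.16). Of all tested genes, 14.7% were higher and 14.1% lower there. At 100 nM and 24 h, 3 of the 9 were higher and none lower (median 0.06), beside 15.4% and 18.4% of all tested genes. With libraries scaled to a common sum the counts were 2 higher and 1 lower and 2 higher and none lower, and both medians turned negative (-0.02 and -0.04). The medians of all tested genes were then -0.16 and -0.11. Of all tested genes, 4.24% were then higher and 34.7% lower at 20 nM, and 8.51% higher and 27.8% lower at 100 nM. Median-of-ratios scaling kept 6 of the 9 higher and none lower at 20 nM. At 20 nM the calls of ACTR3, ARPC1A, ARPC2 and ARPC3 ended without any 1 of 7, 2, 9 and 3 libraries. ARPC4 rose by 0.34 and 0.33 and ARPC5L by 0.35 and 0.49 at 24 h in every alternative. ARPC4 at 24 h had 105.27 and 101.24 FPKM in solvent, 132.11 and 130.30 FPKM at 20 nM and 130.86 and 129.93 FPKM at 100 nM. Its solvent level was itself lower at 24 h than at 16 h (-0.24), where it had 122.15 and 122.11 FPKM. Of 19 genes that bind monomers, sever or cap filaments, CAPZA1, a capping protein subunit, was lower in all 4 comparisons (-0.38, -0.42, -0.27 and -0.62), with 69.28 and 67.29 FPKM at 100 nM and 106.18 and 104.30 FPKM in solvent at 24 h. DSTN, the depolymerising factor destrin, had 211.90 and 215.79 FPKM in solvent, 266.56 and 267.69 FPKM at 20 nM and 258.33 and 264.30 FPKM at 100 nM at 24 h, and rose by 0.32 and 0.29 (adjusted p = 3.52e-04 and 4.08e-04).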

How the data were processed

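The authors' RNA-seq libraries were made from poly(A)-selected RNA with a directional kit and read for 100 cycles from each end, per the labels' protocols. The deposited table holds FPKM per gene for 12 libraries. Per the submitters' processing notes, RSEM 1.2.28 and GRCh38 were used. Neither aligner nor annotation release nor strand setting is given in the sources used here. The table was joined to GENCODE 29 by gene identifier, which gave a symbol to 57836 of 58174 genes.

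Here log2(FPKM + 1) of genes with at least 1 FPKM in at least 2 libraries was fitted with limma 3.58.1 (R 4.3.3), with a mean for each of 6 groups, an intensity trend in the prior and Benjamini-Hochberg adjustment over 13458 genes. Sums and ranks were computed in Python 3.11.15 with pandas 2.3.3. Of 9 comparisons, 4 set a dose against solvent, 2 set the doses against each other, and comparisons of a time share their solvent libraries. A change on the log2(FPKM + 1) scale understates that of low genes. The depth is unknown, so no counting error can be given. The fit was also run on simulated data with independent normal errors, drawn with its own estimates of the spread. That run cannot show whether the spread between 2 libraries covers the spread between cultures.

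The 10 genes and all lists were chosen with earlier results of these data known. Other pathway genes were named from the 3 called genes of a list with the largest change in a comparison, and any SRF partner could be named. TAGLN2, TPM3 and PXN were named outside this rule. No values are given for the tested SRF partners ELK4 and CSRP1. The alternatives were other pseudocounts, filters, scalings and priors, each time fitted alone, protein-coding genes alone and each library left out. Some results of the wider lists are not reported here.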

Additional observations from a re-analysis of the deposited data

Results flagged for a closer look

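For 3 of the 10 genes, the effect of 20 nM dolastatin 15 differed between the times in limma's test of the difference itself. Its p-values were adjusted over all 13458 tested genes, of which 7.06% changed upward and 4.46% downward. MYL9 changed by -0.05 at 24 h and by 0.45 at 16 h, a difference of -0.50 (adjusted p = 0.00879). SRF changed by -0.01 at 24 h and by 0.31 at 16 h, a difference of -0.32 (adjusted p = 0.0309). FLNA changed by -0.25 at 24 h and by -0.003 at 16 h, a difference of -0.25 (adjusted p = 0.0232). The MYL9 call held in all 21 alternatives. That of SRF ended without any 1 of 7 libraries and that of FLNA without any 1 of 4. A constant prior ended both (adjusted p = 0.0501 and 0.0573), and no filter on low values ended that of SRF (adjusted p = 0.0578). Mitochondrial genes held 23.8% and 25.8% of the FPKM of the 20 nM, 24 h libraries and 17.9% and 18.6% of the 24 h solvent libraries, and their part in these differences was not tested.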

How the results depend on the processing

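No paired analysis was possible because the columns of the table carry none of the sample numbers in the labels. Of 1950 values of the 10 genes under alternatives, 1 reversed, ACTB at 20 nM against solvent at 24 h, which was not called on the deposited values (0.04, adjusted p = 0.484) and was -0.15 with libraries scaled to a common sum. A further 51 changed sign without a call in either fit. That scaling raised the number of the 10 genes called from 5 to 8 in the same comparison (1 higher and 7 lower). The share of all tested genes called there went up to 38.9% in place of 28.8%. For the change of the 20 nM effect with time the number rose from 3 to 7, and the share of all tested genes was 18.2% in place of 11.5%. For the change of the 100 nM effect it rose from 0 to 2, and the share was 10.8% in place of 10.2%. The number of the 10 genes called for the 100 nM effect was also 2 with a common sum over nuclear genes, 1 with a minimum of 5 FPKM and 1 with protein-coding genes alone. A constant prior left 1 of 3 calls for the change of the 20 nM effect, and fitting the 24 h libraries alone left 0 of 4 between the doses. The cause was not tested.

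Leaving out 1 library in turn gave 4 to 8 calls at 100 nM and 16 h, 6 to 7 at 100 nM and 24 h, 3 to 4 at 20 nM and 16 h, and 5 in every case at 20 nM and 24 h. It gave 1 to 4 calls between the doses at 24 h and 0 at 16 h, 1 to 4 for the change of the 20 nM effect, 0 to 1 for that of the 100 nM effect and 0 to 3 for time in solvent.

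Counts over all tested genes also moved, and leaving out 1 library moved them in all 9 comparisons. Between the doses at 24 h, 657 genes passed, against 334 with no filter, 411 with a constant prior, 10 with that time alone and 41 to 1526 without 1 library. At 16 h the 43 became 28 with a constant prior, 18 with that time alone and 15 to 65 without 1 library. For time in solvent, 756 became 326 with no filter, 1179 with a common sum and 22 to 1448 without 1 library. For the change of the 20 nM effect, 1550 became 1008, 2455 and 709 to 1759 under those settings. Among the wider genes, 34 calls at 20 nM and 24 h became 21 with that time alone, and the 14 and 13 calls for the changes of the 20 nM and 100 nM effects became 27 and 21 with a common sum.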
